A study of Mus musculus with 8 samples.

Results

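The miR-23, miR-27 and miR-24 miRNAs are made from a pair of paralogous clusters, each a single primary transcript that carries a miR-23, a miR-27 and a miR-24 hairpin in that order. The rows described here are those named mmu-miR-23a, mmu-miR-23b, mmu-miR-24, mmu-miR-27a and mmu-miR-27b, each with its arm (3p or 5p) and, for the 5p arm of miR-24, its copy number. This gave 11 rows of 1099 mature miRNAs. They were measured by small RNA sequencing of KH2-DGCR8 cells, mouse embryonic stem cells of the KH2 background with a DGCR8 transgene, during embryoid body (EB) differentiation. KH2 cells are built for transgenes induced by doxycycline (Dox), and embryoid bodies are the floating clusters that stem cells form as they differentiate. Days 0, 1, 2 and 4 were sampled without Dox and with Dox, all of them from the same genotype, so the libraries without Dox carried the transgene too. Each of the 8 conditions had 1 library, and the labels say neither how long Dox was given nor whether the line is 1 clone. The study asked what DGCR8 overexpression does to miRNA biogenesis; DGCR8 messenger RNA was not analysed here.

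A primary miRNA transcript is cut in the nucleus by the Microprocessor, in which DGCR8 binds the hairpin and DROSHA cuts it, and the hairpin is then cut by DICER into a duplex of a 5p and a 3p strand. An Argonaute protein keeps mostly one strand and pairs its seed, bases 2 to 8, with target messenger RNAs. Members of one cluster start from the same transcript, while the paralogous clusters are transcribed from separate loci. In textbook accounts the miR-23, miR-27 and miR-24 families are abundant in endothelium, muscle and blood lineages and act in vessel growth, adipocyte and muscle differentiation and the control of the cell cycle.

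In the mm10 build (GRCm38), cluster a lies on the plus strand of chromosome 8, with Mir23a at 84208518 to 84208592, Mir27a at 84208672 to 84208758 and Mir24-2 at 84208815 to 84208921. It spans 404 bases, with 79 bases between the miR-23 and miR-27 hairpins and 56 between the miR-27 and miR-24 hairpins. No protein-coding gene covers it in the annotation used here, and the long non-coding RNA gene Gm26532 (84208920 to 84209609, plus strand) overlaps the last bases of Mir24-2. Cluster b lies on the plus strand of chromosome 13, with Mir23b at 63300484 to 63300557, Mir27b at 63300712 to 63300784 and Mir24-1 at 63301208 to 63301275. It spans 792 bases, with gaps of 154 and 423 bases, inside the protein-coding gene 2010111I01Rik on the same strand. Mir23b is intronic there, while Mir27b and Mir24-1 overlap exons of annotated transcripts. Fancc runs across the same region on the minus strand.

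The mature sequences show which rows a read can tell apart. They are RefSeq's, from GRCm38.p6, 5′ to 3′, with the seed (bases 2 to 8) in capitals. A mature sequence was matched for 10 of the 11 rows, the exception being miR-23b-3p. The abundant 3p strands come first, then the 5p strands that mark a single copy.
miR-23a-3p: aUCACAUUgccagggauuucc
miR-27a-3p: uUCACAGUggcuaaguuccgc
miR-27b-3p: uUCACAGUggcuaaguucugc
miR-24-3p: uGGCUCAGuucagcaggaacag
miR-27a-5p: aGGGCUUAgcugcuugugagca
miR-27b-5p: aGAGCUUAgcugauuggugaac
miR-24-2-5p: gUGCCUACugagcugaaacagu
miR-24-1-5p: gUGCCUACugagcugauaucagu

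miR-24-3p is identical from both loci, so its single row sums the clusters. miR-27a-3p and miR-27b-3p share the seed UCACAGU and differ at a single base, C19U (miR-27a-3p first, positions counted from 1 at the 5′ end). The 5p strands separate the copies better. miR-27a-5p and miR-27b-5p differ by 8 substitutions, among them G3A inside the seed, and miR-24-2-5p and miR-24-1-5p share the seed UGCCUAC and differ by 5 substitutions over the 22 bases compared. No other miRNA in the table with a matched sequence had the seed of miR-23a-3p, miR-27a-3p with miR-27b-3p, or miR-24-3p. miR-23b-3p had no matched sequence, so its seed and its differences from miR-23a-3p were not part of this comparison.

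The deposited scores were taken as RPM, which are reads scaled to a total of 1000000 per library and rounded to whole numbers. The smallest totals that fit the steps between low values were 362483 to 541342 miRNA reads per library, and larger totals also fitted in most libraries. Read counts here are those implied by the smallest totals, at which 3 reads correspond to 5.54 to 8.28 RPM. The 11 rows together took 1.64% to 2.48% of a library, resting on 6905 to 11109 implied reads. Counting intervals below are exact conditional binomial intervals at 95% on implied reads. They cover counting error only, and no condition has a replicate. Of the 11 rows, 8 had over 3 reads in every library, and these carry the results. All 11 passed the filter on low values, which asked for 1 RPM or more in 2 or more libraries.

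miR-27 was the most abundant family of the clusters. At days 0, 1, 2 and 4, miR-27b-3p measured 7378, 7348, 6123 and 10660 RPM without Dox, and 9175, 7947, 6404 and 7581 RPM with Dox, which placed it at rank 32 by mean level. miR-27a-3p, from cluster a, measured 6942, 6819, 5741 and 10045 RPM without Dox and 8785, 7318, 6092 and 7186 RPM with Dox, at rank 33. Both rows were lowest at day 2 in each treatment and highest in the day 4 library without Dox. miR-24-3p followed at 2916, 2312, 2066 and 2083 RPM without Dox and 3048, 2327, 2618 and 2309 RPM with Dox. It was highest at day 0 in each treatment. miR-23b-3p measured 1583, 1732, 1224 and 1115 RPM without Dox and 1416, 1707, 1251 and 922 RPM with Dox. miR-23a-3p measured 1430, 1370, 662 and 480 RPM without Dox and 1216, 1427, 851 and 528 RPM with Dox. The 4 libraries of days 0 and 1 were all above the 4 of days 2 and 4 for each of the miR-23 3p rows, which held for 2 of the 11 rows beside a background of 2.38% (20 of 839 miRNAs). Over the 8 libraries the means and SDs were 7827 ± 1477 RPM for miR-27b-3p, 7366 ± 1413 for miR-27a-3p, 2460 ± 366 for miR-24-3p, 1369 ± 291 for miR-23b-3p and 995.5 ± 411 for miR-23a-3p, where the SD mixes days and treatments. In that order the ranges of miR-27b-3p and miR-27a-3p overlapped over libraries, as did those of miR-23b-3p and miR-23a-3p, while miR-24-3p overlapped neither of its neighbours. Within a library, the a row was below the b row in all 8 for both pairs.

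The 5p strands, the passenger strands of these hairpins in most tissues, were lower. miR-27a-5p, the other strand of the Mir27a hairpin, measured 727, 554, 382 and 254 RPM without Dox and 413, 572, 368 and 425 RPM with Dox. Without Dox its highest value was at day 0 and its lowest at day 4, while with Dox the values had no such order. miR-24-2-5p, which marks the cluster a copy of miR-24, measured 201, 142, 121 and 94 RPM without Dox and 219, 97, 174 and 139 RPM with Dox. miR-27b-5p, which marks cluster b, lay between 28 and 58 RPM, or 13 to 25 reads. The remaining 3 rows were at or near the level of 3 reads. miR-23b-5p reached at most 8 RPM (4 reads), miR-24-1-5p at most 7 RPM (3 reads) and miR-23a-5p at most 2 RPM (1 read). They were listed at 0 in 3, 5 and 6 of the 8 libraries, where a count of 0 allows up to 3 reads.

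**Figure D1:**
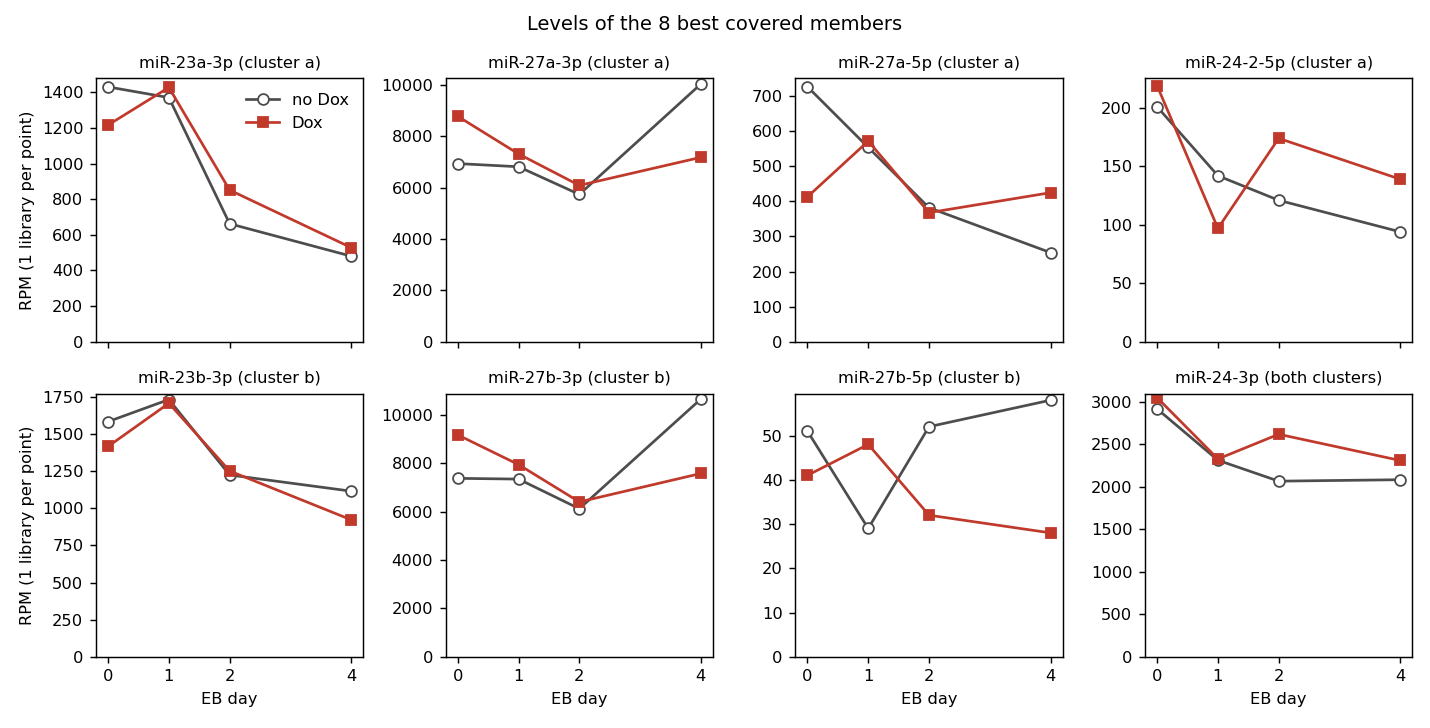
Level of the 8 rows with over 3 reads in every library (RPM, linear axis from 0) against EB day, with 1 library per point and lines joining the libraries without Dox (open circles) and with Dox (filled squares). miR-23a-3p ends at 480 and 528 RPM, under its day 0 values of 1430 and 1216, while the miR-27a-3p row goes from 6942 to 10045 RPM without Dox and from 8785 to 7186 RPM with Dox.

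Change with day was tested in 1 model of treatment and day over all libraries, with limma's moderated test on log2(RPM + 1) and adjustment over the 839 miRNAs tested. Each day then had 2 libraries, 1 per treatment. The SEs of the 11 rows come from the spread typical of miRNAs of like level, not from a row's own spread. Of the clusters, only miR-23a-3p was called at day 4 against day 0 with the deposited scaling. Its log2 change was -1.39 (SE 0.30, adjusted p = 3.12e-05 by limma). That is 1 of 11 rows called, beside a background of 25.7% (216 of 839, 184 higher and 32 lower). Of the 8 rows with over 3 reads in every library, 6 had a negative change. Relative to its own day 0, the level of miR-23a-3p at day 4 was 0.336 (interval 0.282 to 0.398) without Dox and 0.434 (0.373 to 0.505) with Dox. It was already lower at day 2, by 0.463 (0.400 to 0.535) and 0.700 (0.610 to 0.802) times day 0, and not at day 1, where the ratios were 0.958 (0.854 to 1.07) and 1.17 (1.04 to 1.32).

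Its paralog miR-23b-3p moved less: the day 4 change was -0.56 (SE 0.28, limma adjusted p = 0.146), with day 4 to day 0 ratios of 0.704 (0.620 to 0.798) without Dox and 0.651 (0.575 to 0.738) with Dox. For miR-24-3p the change was -0.44 (SE 0.27, adjusted p = 0.248 by limma) and the ratios were 0.714 (0.651 to 0.783) and 0.758 (0.698 to 0.822). In both rows the counting intervals lay below 1 in each treatment, but the change did not pass the test across miRNAs. miR-27a-3p and miR-27b-3p changed by 0.12 (SE 0.25) and 0.13 (SE 0.25), with limma adjusted p = 0.793 and 0.782. Treatments went apart: without Dox, miR-27a-3p at day 4 was 1.45 times (1.38 to 1.52) its day 0 level, and with Dox it was 0.818 times (0.780 to 0.857). miR-27b-3p gave nearly the same values, 1.44 (1.38 to 1.52) and 0.826 (0.789 to 0.865).

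Among the 5p strands, miR-27a-5p changed by -0.74 (SE 0.33, limma adjusted p = 0.0880), miR-24-2-5p by -0.87 (SE 0.41, 0.108) and miR-27b-5p by -0.18 (SE 0.54, 0.874). The mean over treatments hid a contrast in miR-27a-5p, whose day 4 to day 0 ratio was 0.349 (0.273 to 0.442) without Dox and 1.03 (0.835 to 1.27) with Dox. Single libraries decided its value. The change was called at -1.27 without the Dox library of day 0 (limma adjusted p = 0.0345) and at -1.24 without that of day 4 (0.00478), but was -0.21 without the no-Dox library of day 0 (0.840) and -0.23 without that of day 4 (0.749). For miR-24-2-5p it was -1.13 without the Dox library of day 4 (limma adjusted p = 0.0489) and -0.61 without the no-Dox library of that day (0.392).

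At day 2, 2 of the 11 rows were called, which is near the background of 17.3% (145 of 839). miR-23a-3p fell by 0.81 (SE 0.30, limma adjusted p = 0.0391), a call that was lost in 9 of 16 alternatives, including the removal of any of the libraries of days 0, 1 or 2. The other was miR-24-1-5p (limma adjusted p = 0.0487), which rested on 3 reads in each day 2 library against 0 reads at day 0, so no fold is given. It would not have passed the filter on low values without the day 2 libraries, so its call is not taken as a result. This call was lost in 12 of 15 alternatives. All 8 better covered rows had a negative day 2 change, from -0.81 to -0.16. At day 1, limma called 0 of the 11 rows beside a background of 8.1% (68 of 839), and 1 row, miR-24-2-5p, had an unadjusted p under 0.05.

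These changes depended on the scale on which they were set. The miR-290 cluster, the main miRNAs of embryonic stem cells, took a large share of every library. The summed level of 7 stem cell markers from that cluster fell from 353865 to 123124 RPM without Dox and from 321032 to 175497 RPM with Dox between days 0 and 4, and 6 of the 7 were called lower. On the deposited scale the median miRNA then changed by 0.56 from day 0 to day 4, and 85.2% of the calls were higher. With median-of-ratios scaling, which sets the typical miRNA to no change, that median was 0.01, 162 miRNAs were called and 62.3% of the calls were higher. Of the 11 rows, 5 were then called, each of them lower at day 4: miR-23a-3p (-1.99), miR-24-2-5p (-1.47), miR-27a-5p (-1.33), miR-23b-3p (-1.16) and miR-24-3p (-1.04). The miR-27 3p rows turned to -0.48 for miR-27a-3p and -0.47 for miR-27b-3p, which did not pass (limma adjusted p = 0.173 and 0.178). Scaling to the total outside the miR-290 cluster called the same 5 rows among 164 calls, 65.9% of them higher, and gave -0.38 for each miR-27 3p row. miR-23a-3p was thus lower at day 4 on all 3 scales, and the direction of the miR-27 3p rows was not fixed by these data. At day 2, median-of-ratios scaling called 102 miRNAs, 50% of them higher, and 5 of the 11 rows, all lower, with both miR-27 3p rows among them.

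**Figure D2:**
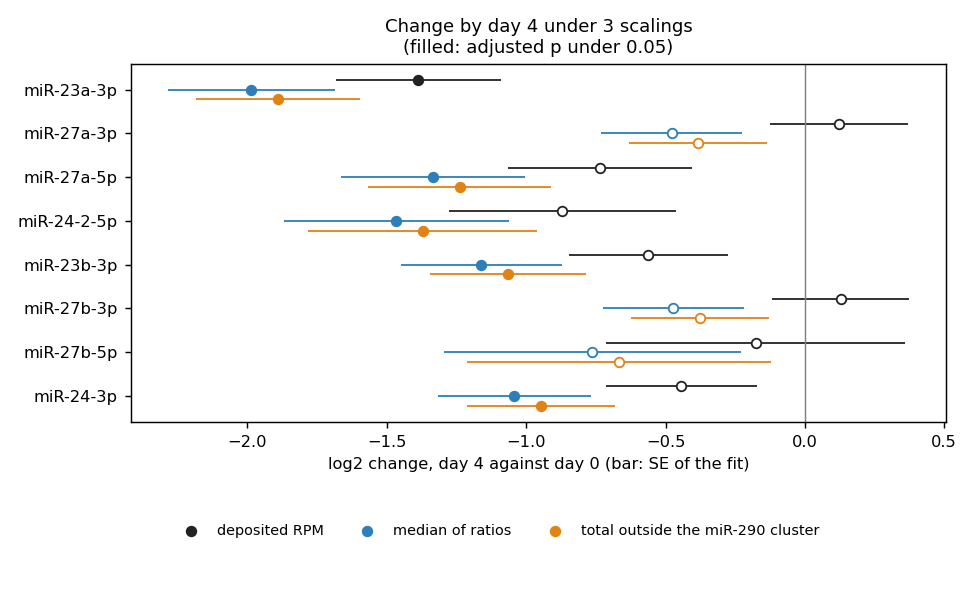
Change from day 0 to day 4 (log2, points with bars of 1 SE of the limma fit) of the 8 better covered rows under 3 scalings, filled where the adjusted p is under 0.05. miR-23a-3p is filled and lowest under each scaling, and the miR-27 3p rows sit at 0.12 and 0.13 on the deposited scale and below 0 on the others.

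Ratios between rows of 1 library do not depend on scaling, and they were used to compare the clusters and the members of 1 transcript. The 4 libraries of days 2 and 4 were set against the 4 of days 0 and 1, Dox and no Dox together, with an exact two-sided permutation test whose smallest p is 0.0286. Of 12 ratios tested, none passed after adjustment over the 12, and 1 reached the smallest p. Libraries within each set differ in day and treatment and are not replicates of a condition.

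miR-23a-3p over miR-23b-3p compares the clusters through their miR-23 rows. No sequence was matched for miR-23b-3p, so how well reads tell these rows apart was not assessed. The ratio was 0.903, 0.791, 0.541 and 0.430 without Dox at days 0, 1, 2 and 4 and 0.859, 0.836, 0.680 and 0.573 with Dox. Its earlier and later libraries did not overlap, with 0.791 to 0.903 at days 0 and 1 and 0.430 to 0.680 at days 2 and 4. This held for 1 of the 12 ratios, several of which use rows at 4 reads or fewer. The share among other pairs of miRNAs was not computed, so how rare this is was not assessed. The mean log2 ratio was lower at the later days by -0.62 (exact permutation p = 0.0286, adjusted 0.305). The SD of the log2 ratio over libraries was 0.38, above the 0.095 that counting alone gives. In both treatments the miR-23a-3p row was the less abundant of the pair at every day, and the distance was widest at day 4.

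miR-27a-3p over miR-27b-3p, the same comparison through miR-27, stayed between 0.921 and 0.957 in all 8 libraries. The SD of the log2 ratio was 0.018, below the 0.036 that independent counting of the rows would give, so the rows differed between libraries by less than sampling noise. The handling of reads that match both rows, which differ at base 19, was stated in none of the sources used here, and their values cannot be assigned to separate copies. Among miRNAs with a matched sequence that averaged 100 RPM or more, 13 pairs of equal length differed at 1 base. The SD of their log2 ratios ran from 0.011 for miR-103-3p with miR-107-3p to 0.475 for let-7a-5p with let-7e-5p.

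The 5p strands, which differ at more bases, showed the copies apart. miR-27a-5p over miR-27b-5p was 14.3, 19.1, 7.35 and 4.38 without Dox and 10.1, 11.9, 11.5 and 15.2 with Dox, so that the cluster a strand was the more abundant in all 8 libraries. The later days differed by -0.64 on the log2 scale (exact permutation p = 0.229), which became -0.31 without the no-Dox library of day 4 and -0.90 without the Dox library of that day. miR-24-2-5p was above miR-24-1-5p in every library, with 34 to 83 reads against 0 to 3, too few for a ratio. The level of a 5p strand reflects strand choice and stability as well as the copy's transcription, and these were not measured separately.

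**Figure D3:**
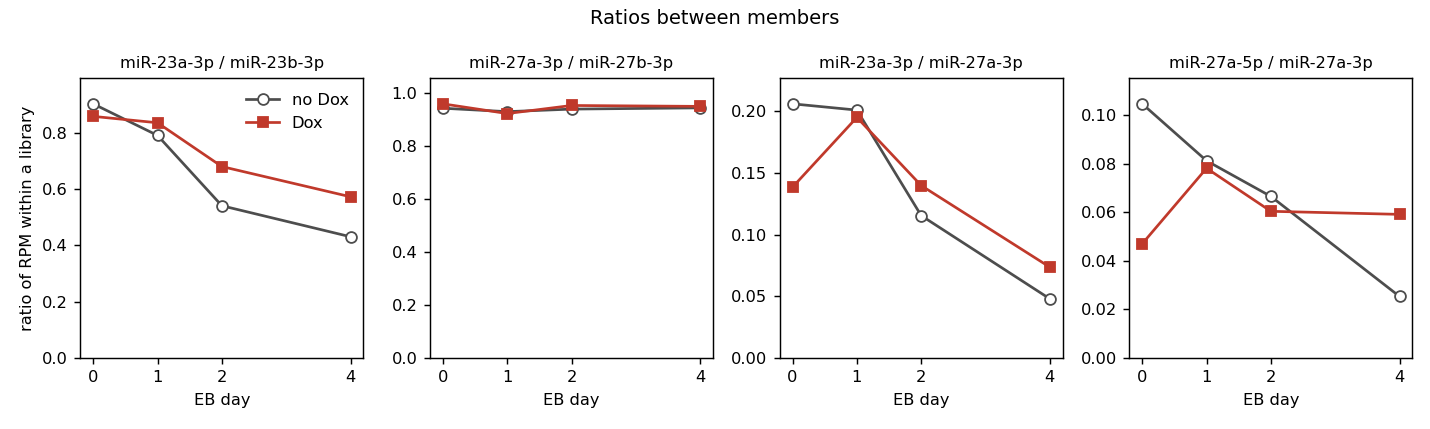
Ratios of RPM between rows of the same library (linear axes from 0) against EB day, open circles without Dox and filled squares with Dox, 1 library per point. The ratio of miR-23a-3p to miR-23b-3p runs from 0.903 down to 0.430 without Dox, while that of miR-27a-3p to miR-27b-3p stays between 0.921 and 0.957.

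Members of 1 transcript were compared through their 3p rows, with the limit that the miR-27 rows cannot be assigned to a copy. How well reads separate the miR-23 rows was not assessed. None of these ratios passed the test. In cluster a, miR-23a-3p over miR-27a-3p was 0.206, 0.201, 0.115 and 0.0478 without Dox and 0.138, 0.195, 0.140 and 0.0735 with Dox. The later days were lower by -1.07 on the log2 scale (exact permutation p = 0.0571, adjusted 0.305), and the sets overlapped by the Dox libraries of days 0 and 2. In cluster b, miR-23b-3p over miR-27b-3p was 0.215, 0.236, 0.200 and 0.105 without Dox and 0.154, 0.215, 0.195 and 0.122 with Dox, a difference of -0.44 (exact permutation p = 0.171). In each treatment the day 4 library had the lowest ratio for both clusters. Without the no-Dox library of day 4 the differences were -0.79 and -0.27. Since the miR-27 3p rows cannot be separated, miR-23a-3p plus miR-23b-3p was also set over miR-27a-3p plus miR-27b-3p, an alternative chosen after the data were seen, which gave a difference of -0.69 (exact permutation p = 0.0857, outside the adjustment over the 12). miR-24-3p over both miR-27 3p rows lay between 0.101 and 0.210, lowest at day 4 without Dox, with no order by day (exact permutation p = 0.714).

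The strands of 1 hairpin were compared last. miR-27a-5p over miR-27a-3p was 0.105, 0.0812, 0.0665 and 0.0253 without Dox and 0.0470, 0.0782, 0.0604 and 0.0591 with Dox. Without Dox the 5p share fell at each step in these 4 libraries, and with Dox it was lowest at day 0 (exact permutation p = 0.229 for later against earlier days). The difference of -0.59 became -0.27 without the no-Dox library of day 4. miR-27b-5p over miR-27b-3p stayed between 0.00369 and 0.00849. The miR-23 5p strands were at most 0.00480 of their 3p strands, on 4 reads or fewer.

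Dox was compared with no Dox to ask whether the clusters moved with the inducer of the DGCR8 transgene. No change was detected: limma called 0 of the 11 rows, beside a background of 1.91% (16 of 839), and 0 had an unadjusted p under 0.05. The changes of the 8 better covered rows ran from -0.33 (miR-27b-5p) to 0.16 (miR-24-2-5p), with SEs of 0.17 to 0.38. The miR-27 3p rows changed by 0.01 and 0.00, miR-23a-3p by 0.08 (SE 0.21), miR-24-3p by 0.14 (SE 0.19) and miR-23b-3p by -0.11 (SE 0.20). Of the 12 ratios none passed either, in an exact sign-flip permutation test over the 4 days whose smallest p is 0.13 and which therefore cannot reach 0.05.

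Single days differed beyond counting error, which was common in this table. For 5 of the 11 rows, all among the 8 better covered, the interval lay above 1 on one day and below 1 on another. The same held for 15.6% of the 839 miRNAs and 33.6% of the 387 with over 3 reads in every library. Both miR-27 3p rows are among the 5, and they cannot be separated, so they are not independent rows. The Dox to no-Dox ratio of miR-27a-3p was 1.27 (1.20 to 1.33), 1.07 (1.02 to 1.13), 1.06 and 0.715 (0.684 to 0.749) at days 0, 1, 2 and 4, and that of miR-27b-3p was 1.24, 1.08, 1.05 and 0.711. Both were thus higher with Dox at day 0 and lower at day 4. miR-27a-5p, the other strand of the same hairpin, went the opposite way, at 0.568 (0.464 to 0.692), 1.03, 0.963 and 1.67 (1.31 to 2.16). Whether the ratio moved steadily over days was tested with a treatment by day term. It called 0 of the 11 rows, beside a background of 0.954% (8 of 839), although 3 had an unadjusted p under 0.05, beside 11.3% of all miRNAs (95 of 839). These were miR-27a-5p (0.35 per day, limma adjusted p = 0.332) and the rows that cannot be separated, miR-27a-3p (-0.20, 0.405) and miR-27b-3p (-0.20, 0.405). The count was 1 under either other scaling and 0 without any 1 of the day 0 or day 4 libraries. For miR-24-3p the ratio was 1.05, 1.01, 1.27 and 1.11, and for miR-23b-3p 0.894, 0.986, 1.02 and 0.827, with no run in one direction.

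**Figure D4:**
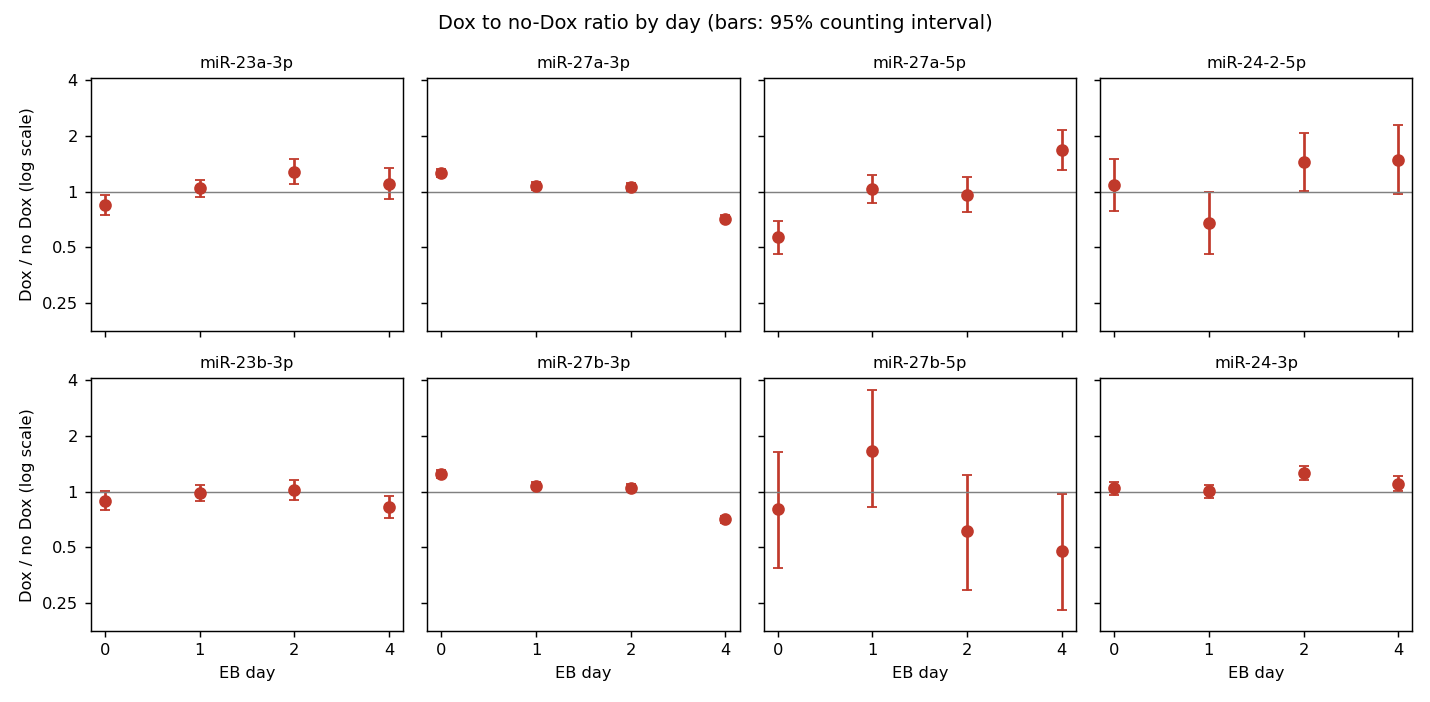
Ratio of Dox to no Dox (log axis) for the 8 better covered rows at each EB day, with bars for the 95% counting interval, which leaves out variation between cultures. Between days 0 and 4, miR-27a-3p and miR-27b-3p go from 1.27 and 1.24 to 0.715 and 0.711, and miR-27a-5p from 0.568 to 1.67.

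The opposite strand of the miR-24 hairpins carries miR-3074, annotated at Mir3074-1 (chromosome 13, 63301199 to 63301283, minus strand) and Mir3074-2 (chromosome 8, 84208825 to 84208907, minus strand). miR-3074-5p had 2, 13, 14 and 17 RPM without Dox and 5, 35, 9 and 11 RPM with Dox, far under miR-24-3p in every library. Its change passed at no day (limma adjusted p = 0.0508 at day 1 and 0.107 at day 4). miR-3074-1-3p was at most 7 RPM, and miR-3074-2-3p was not analysed here.

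Other miRNAs were ranked by how closely they followed each 3p row, as Pearson's r of log2(RPM + 1) over the 8 libraries among the 264 miRNAs averaging 100 RPM or more. These are descriptions over libraries that share their total, and such a total ties levels together. The closest to miR-23a-3p were the stem cell miRNAs miR-290a-5p (r = 0.98) and miR-291a-5p (0.97), with miR-146b-5p (0.96). miR-290a-5p went from 3675 to 1277 RPM without Dox and from 3154 to 1419 RPM with Dox between days 0 and 4. The closest to miR-23b-3p were the neural miR-124-3p (0.96), miR-290a-5p (0.93) and miR-181b-5p (0.92). miR-24-3p was followed less closely, by miR-181c-3p (0.82), miR-194-5p (0.81) and miR-135a-5p (0.81). miR-26b-5p (0.84), miR-15b-5p (0.81) and miR-92b-3p (0.78) were closest to miR-27a-3p, and the same 3 to miR-27b-3p. Within the clusters r was 0.93 between miR-23a-3p and miR-23b-3p, 0.89 between miR-24-3p and miR-24-2-5p, and -0.18 between miR-23a-3p and the miR-27a-3p row. Between miR-23a-3p and miR-27a-5p, the strand that marks the Mir27a copy on the same transcript, r was 0.82. With miR-23b-3p of the other cluster, miR-27a-5p had an r of 0.68. miR-24-2-5p, also of cluster a, had an r of 0.42 with miR-23a-3p and 0.37 with miR-27a-5p.

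Markers of several cell types were read in the same libraries. Fewer cells of a type and less RNA per cell cannot be told apart in bulk samples. Stem cell markers defined the libraries, as given above. The epiblast markers of the miR-302 cluster summed to 335 RPM at day 0 and 29011 at day 4 without Dox, against 290 and 2044 RPM with Dox, with 1 of 4 called from day 0 to day 4 and 3 of 4 called for a Dox effect that fell with day. Endothelium and blood markers summed to 848 to 1630 RPM over the libraries, nearly all of it miR-126a-3p. Of these, 1 of 6 was called at day 4, miR-451a, which was at 0 outside the day 4 libraries and at 6 RPM in each of them. There, 3 reads correspond to 8.28 RPM without Dox and 5.54 RPM with Dox, and miR-451a passed the filter through these libraries only. Muscle markers summed to 16 to 179 RPM, with 2 of 4 called higher at day 4. Fibroblast markers went from 13475 to 39692 RPM without Dox and from 19343 to 57636 RPM with Dox, which was mostly miR-21a-5p, with 1 of 7 higher and 1 lower. Neural markers summed to 3371 to 7903 RPM, with 2 of 4 tested higher and miR-124-3p lower. Of a wider list of 12 vascular and mesenchymal miRNAs measured, 1 was higher and 1 lower at day 4, with a median change of 0.10 beside 0.56 for all miRNAs. No list held a miRNA called for Dox across days. The part of any of these cell types in the members' levels was not tested.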

How the data were processed

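The authors deposited 1 table of whole-number scores for 1099 mature miRNAs in 8 libraries. Each column sums to about 1000000 (999965 to 1000047), as rounded RPM do. RNA came from a TRIzol extraction and libraries from an NEBNext kit, per the labels' protocols. The submitters' processing notes name Bowtie and mm10. Not given in the sources used here are the counting tool, the annotation and what was done with reads matching several miRNAs. A blank row (1) was left out.

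The members, lists and tests were chosen with earlier results of these data known. The rows named are all members, the miR-3074 strands, the 3 miRNAs closest to each 3p member, and listed markers whose level moves with a result. Implied reads are those of the smallest total for which every value, within 0.5 RPM, is a rounded whole read. Up to 207 totals met this in a library, so read counts and intervals hold for the smallest total.

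The design foresaw counts or normalized values, and the test for normalized values was used: limma 3.58.1 (R 4.3.3), log2(value + 1), trend and robust options, treatment and day as factors, Benjamini-Hochberg adjustment over 839 miRNAs that reached 1 RPM in 2 or more libraries, threshold 0.05. Fold changes on this scale understate those of low miRNAs. Each day supplied 1 library per treatment, so day is the block in the Dox comparison. Prior degrees of freedom were finite for 39 miRNAs in this model and 3 in that with treatment by day, so most SEs come from the trend over miRNAs. The labels do not name separate cultures. The members' limma p-values set a change against the spread typical of miRNAs of like level between these libraries, which may be technical. Ratios were tested by exact permutation in Python 3.11.15, and counting intervals used scipy 1.17.1. The limma fit was tested on simulated data, for day 4 against day 0 and for Dox against no Dox. Alternatives covered pseudocount, filter, scaling, the robust option, limma-voom on implied reads, the day term and leaving out libraries.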

Additional observations from a re-analysis of the deposited data

Results flagged for a closer look

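For 5 members the Dox to no-Dox ratio had counting intervals above 1 on one day and below 1 on another. The same held for 131 of the 839 miRNAs tested. Among the 387 with over 3 reads in every library, as these 5 have, it held for 130 (33.6%). The miR-27 3p rows among the 5 cannot be separated and are not independent. The difference between those days was itself not tested. miR-27a-3p was at 1.27 at day 0 and 0.715 at day 4, and miR-27b-3p, its near-identical paralog, at 1.24 and 0.711. miR-27a-5p was at 0.568 at day 0 and 1.67 at day 4. miR-23a-3p was at 0.850 at day 0 and 1.29 at day 2, and miR-24-2-5p at 0.679 at day 1 and 1.44 at day 2. The intervals of miR-24-2-5p only just left out 1, at 0.459 to 0.998 on day 1 and 1.004 to 2.09 on day 2. They hold for the smallest fitting read totals. The slope of the Dox effect with day passed in none of them after limma's adjustment over all miRNAs, and each day has 1 library per treatment, so variation between cultures cannot be told apart from the effect of Dox on a day.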

How the results depend on the processing

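miR-23a-3p was lower at day 4 in all 16 alternatives run (-1.99 to -1.18) and called in 15; with no filter the change was -1.39 with an adjusted p of 0.0571. At days 4, 2 and 1, median-of-ratios scaling called 5, 5 and 1 members, among 162, 102 and 69 of 839 miRNAs. At days 4 and 2, the total outside miR-290 called 5 and 1 members, among 164 and 115 of 839 miRNAs. miR-27a-3p and miR-27b-3p at day 4 reversed to -0.48 and -0.47 with the former and -0.38 each with the latter. With no filter, 30, 1, 1, 0 and 0 miRNAs were called for days 4, 2, 1, Dox and its change with day, and 0 members at days 4 and 2. Without the robust option 72 (day 2), 13 (day 1), 0 and 0 were called, and 0 members at day 2. Members called at day 2 were 1 with a pseudocount of 0.5 or a mean of at least 10, and 0 with limma-voom. With no day term, limma called 0 miRNAs for Dox (25 at unadjusted p under 0.05). No member was called for Dox or its change with day in any alternative. Leaving out libraries or day pairs gave 118 to 217, 14 to 189, 18 to 106, 1 to 15 and 0 to 12 calls, with 1 to 3 members at day 4 and 0 to 2 at day 2. It gave -0.21 to 0.45 for miR-27a-3p, -0.20 to 0.46 for miR-27b-3p and -0.64 to 0.29 for miR-27b-5p at day 4. Without the no-Dox library of day 4 the miR-27 3p rows were at -0.21 and -0.20. Ratios gave -0.29 to 0.061 for miR-24-3p over miR-27 and -0.16 to 0.23 for the miR-27b strands. Day 4 against day 0 alone gave -0.0062 for miR-27a-3p over miR-27b-3p and -0.30 for the miR-27b strands. The cause of these changes was not tested. A library that is left out leaves its day with 1 library, assumed to vary like the others. Depth limits the miR-23 5p and miR-24-1-5p rows, at 4 reads or fewer.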
